A study of Mus musculus with 3 samples.

Results

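Epicardial and proepicardial nuclei were studied in single-nucleus RNA sequencing of whole mouse hearts at embryonic day 9.5. A nucleus with at least 500 detected genes was taken as a member where it held a unique molecular identifier (UMI) in at least 3 of 8 marker genes, Wt1, Tbx18, Upk3b, Upk1b, Aldh1a2, Tcf21, Bnc1 and Sfrp5, with Tbx18 or Tcf21 among them. A nucleus with UMIs in 4 or more of 11 endothelial genes was left out. The rule found 156 members among 38192 nuclei: 61 in Ncx1+/+, 3 in Ncx1+/- and 92 in Ncx1-/-. The Ncx1+/- library thus holds few such nuclei, and its gene levels, which rest on these 3 nuclei, are given beside the others but not compared with them.

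The epicardium is the mesothelial sheet that covers the heart. It arises from the proepicardium, a transient cluster of cells on the septum transversum at the venous pole, whose cells attach to the beating myocardium and spread over it. Some epicardial cells later leave the sheet by epithelial-to-mesenchymal transition and form fibroblasts and mural cells of the coronary vessels, and the layer secretes mitogens such as Igf2 and makes retinoic acid.

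The hearts were wild type (Ncx1+/+), heterozygotes (Ncx1+/-) or homozygous mutants (Ncx1-/-) of Ncx1, a widely used name of Slc8a1. This gene encodes a sodium-calcium exchanger of cardiac muscle, and embryos without it are known not to establish a regular heartbeat and circulation. Each genotype is a single library of 5 pooled frozen hearts, so the genotypes cannot be tested against each other and nothing here is checked by a replicate. The deleted part of the gene, the sex of the embryos and whether proepicardium or septum transversum was kept on the dissected hearts are not given in the sources used.

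The libraries hold 13562, 12305 and 12325 nuclei in the order Ncx1+/+, Ncx1+/- and Ncx1-/-, with a median of 3908, 3503 and 3697 UMIs. Members held a median of 3993, 5285 and 3678 UMIs and 258045, 15112 and 415665 UMIs in all. Levels are given as CPM, the UMIs of a gene summed over the members of a library and scaled to a total of 1000000. One count is worth 3.88 CPM in Ncx1+/+, 66.2 CPM in Ncx1+/- and 2.41 CPM in Ncx1-/-. Libraries shared 40 to 57 barcodes in pairs, and no barcode was a member in more than 1 library. Intervals are exact at 95% and cover counting error only, not the spread between hearts.

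Members made up 0.450% of nuclei in Ncx1+/+ (0.344 to 0.577), 0.0244% in Ncx1+/- (0.00503 to 0.0712) and 0.746% in Ncx1-/- (0.602 to 0.915). Under the rule as given the intervals of the 3 libraries do not overlap. They cover counting error only, and each genotype is 1 pool. The gap between Ncx1+/+ and Ncx1-/- was smaller under a stricter rule. With at least 4 markers the shares were 0.265, 0 and 0.325% (36, 0 and 40 members). With every nucleus thinned to 2000 UMIs they were 0.321, 0.0185 and 0.447% (39, 2 and 51 members). No interval is given for these shares, so non-overlap is stated for the main rule only. The Ncx1-/- library also held fewer nuclei with at least 5 of 11 erythroid genes (149 against 662 in Ncx1+/+) and fewer nuclei with at least 4 of 11 endothelial genes (2244 against 2904), which enter the denominator. How much tissue of the venous pole each pool held cannot be told apart from the genotype.

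The levels of the 8 markers that chose the members are a description. Tbx18 (ENSMUSG00000032419; mm10 chromosome 9, 87702800 to 87731260), a T-box transcription factor of the proepicardium, epicardium and sinus horns, was at 690 CPM in Ncx1+/+ and 517 CPM in Ncx1-/-. Wt1, a zinc finger transcription factor required in the epicardium, was at 492 and 277 CPM. Upk1b and Upk3b, uroplakins of the mesothelial surface, were at 376 and 144 CPM and at 105 and 149 CPM. Most members thus carried Tbx18 and Wt1, which had UMIs in 58 and 53 of the 61 Ncx1+/+ members and in 84 and 72 of the 92 Ncx1-/- members.

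Tcf21 (ENSMUSG00000045680; chromosome 10, 22817281 to 22820174), a helix-loop-helix factor of epicardial cells and later of cardiac fibroblasts, was at 198 and 207 CPM. Bnc1, the zinc finger protein basonuclin, was at 96.9 and 89.0 CPM, and Sfrp5, a secreted Wnt inhibitor, at 85.3 and 43.3 CPM. Aldh1a2, the retinoic acid-synthesising enzyme, had 2 counts in 2 of 61 Ncx1+/+ members and 25 counts in 15 of 92 Ncx1-/- members. Of the 8 markers Aldh1a2 was thus found in the fewest members in both libraries. By level it was the lowest in Ncx1+/+, at 7.75 CPM, but not in Ncx1-/-, where it was at 60.1 CPM and Sfrp5 at 43.3 CPM. The 3 Ncx1+/- members held 5 counts of Tbx18, 3 of Wt1 and 1 each of Upk3b, Aldh1a2 and Tcf21.

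**Figure D1:**
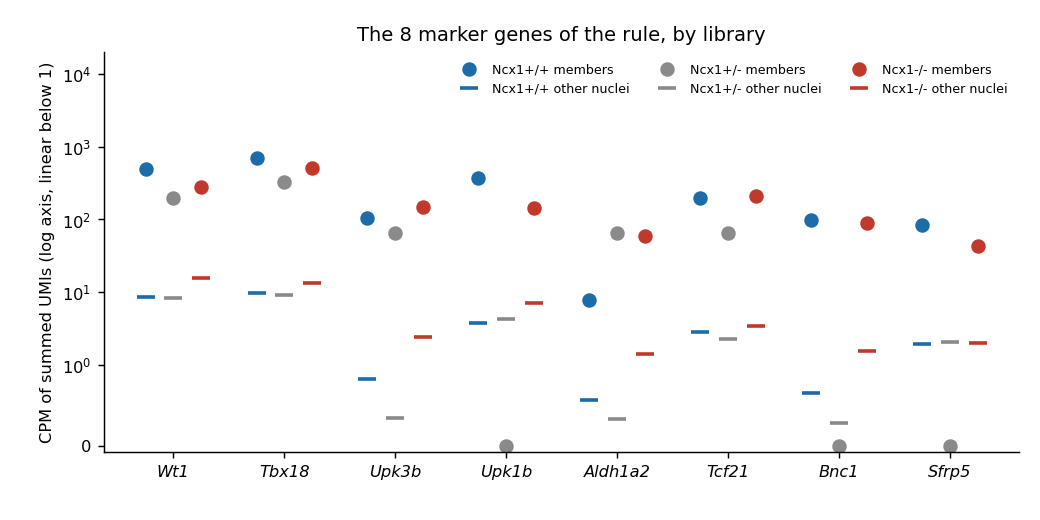
Level of the 8 marker genes of the rule in members (circles) and in all other nuclei (dashes) of each library, in CPM of summed UMIs on an axis that is logarithmic above 1 and linear below. Since the rule chose members by these genes the gap between circles and dashes is built in; Aldh1a2 in Ncx1+/+ members, at 7.75 CPM, is the lowest circle above 0.

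Free RNA in droplets can give UMIs in nuclei that do not express a gene. Since the rule required UMIs of these markers, the gap between members and other nuclei in Wt1 and Tbx18 was set by the choice of members, and the shares in other nuclei only give the level outside it. After thinning to 2000 UMIs, Wt1 was found in 65.6% of Ncx1+/+ members and 57.1% of Ncx1-/- members, against 0.493 and 0.976% of the endothelial-rule nuclei (at least 4 of the 11 endothelial genes), which have median depths of 5305 and 4420 UMIs before thinning. Tbx18 was found in 77.0 and 71.4% of thinned members against 0.282 and 0.790% of endothelial-rule nuclei. Without thinning, Wt1 was in 86.9 and 78.3% of members and Tbx18 in 95.1 and 91.3%. These genes were also found in some heart muscle nuclei: Tbx18 in 4.38 and 5.06%, and Wt1 in 4.50 and 6.53%, of the cardiomyocyte-rule nuclei, which hold at least 10 of 12 cardiomyocyte genes and fewer than 4 of the endothelial genes.

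Members just inside the threshold, with 3 markers, numbered 25, 3 and 52, and nuclei just outside it, with 2, numbered 109, 51 and 129. Both sides differed in their heart muscle RNA. The 12 cardiomyocyte markers took a median of 0.460, 1.83 and 0.631% of UMIs in members with 3 markers and 2.15, 2.57 and 2.31% in nuclei with 2. Itga4, an integrin subunit needed to attach the epicardium, stood at 377 and 204 CPM in Ncx1+/+ and Ncx1-/- members with 3 markers and at 17.9 and 11.2 CPM in nuclei with 2. Members with 4 or more markers, at 613 and 257 CPM, also carried this gene.

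Cell type markers outside the rule were read over the members of each library. The 12 cardiomyocyte markers were all detected and summed to 8499, 17867 and 11295 CPM, which is 34.7, 68.9 and 42.7% of their level in cardiomyocyte-rule nuclei. Per nucleus they took a median of 0.414, 1.83 and 0.564% of UMIs in members, 0.232, 0.283 and 0.465% in endothelial-rule nuclei and 2.39, 2.49 and 2.58% in cardiomyocyte-rule nuclei. Most members thus lay near the endothelial-rule nuclei in this measure, while 6, 1 and 7 members reached the lower quartile of the cardiomyocyte-rule nuclei. These 6 and 7 members of Ncx1+/+ and Ncx1-/- held 0 counts of Lhx9 and 0 and 1 of Itga4, genes that lead the other members below.

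Endothelial and erythroid markers were low. For endothelial genes this is partly built in, since the rule left out nuclei with 4 or more of them and endothelial-rule nuclei were chosen by them. The 10 further endothelial markers summed to 213 CPM in Ncx1+/+ and 118 CPM in Ncx1-/- members, 3.85 and 2.54% of the level in endothelial-rule nuclei, with Cldn5, Cd34 and Robo4 at 0 counts. Erythroid genes summed to 570 and 140 CPM, 5.23 and 1.83% of the level in erythroid-rule nuclei. The 12 endoderm and epithelial genes held 0, 0 and 2 counts, with Epcam at 0, and the 8 neural crest genes 6, 0 and 11 counts. Neural crest genes, at 23.3 CPM in Ncx1+/+ and 26.5 CPM in Ncx1-/- members, stood at 166 and 206% of their level in all other nuclei, with Foxd3, Tfap2b, Dlx5 and Dlx6 at 0 counts. Cushion mesenchyme genes summed to 1608 and 1525 CPM, 62.9 and 68.4% of the level in all other nuclei, and pharyngeal mesoderm genes to 77.5 and 77.0 CPM, 99.0 and 105% of that level. The part of such cells in the results was not tested. No member exceeded 5% mitochondrial UMIs.

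**Figure D2:**
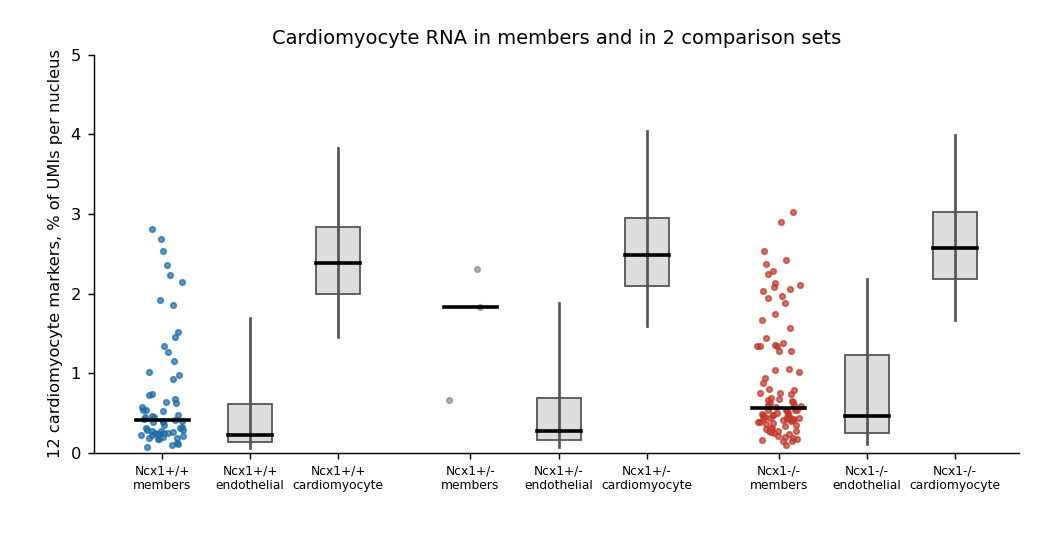
Share of UMIs per nucleus taken by 12 cardiomyocyte markers, in percent, for each member (points, with the median as a bar) and for endothelial-rule and cardiomyocyte-rule nuclei (box from the 25th to the 75th percentile with the median, line from the 5th to the 95th). Member medians are 0.414, 1.83 and 0.564%, with a tail of members in the range of cardiomyocyte-rule nuclei.

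Beyond the rule genes, members carried some epicardial genes at higher levels than other nuclei in both Ncx1+/+ and Ncx1-/-. As the members were chosen from these same nuclei this is a description. A gene was counted where its CPM was at least 2-fold higher than in all other nuclei with the interval above 1 in both libraries, which 198 of 6310 genes (3.14%) met. Of 35 epicardial genes outside the rule, 20 had the 20 member counts needed, and 10 of these were counted: Lhx9, Sema3d, Itga4, Krt18, Mab21l2, Nr2f1, Nr2f2, Pdgfra, Dlk1 and Efemp1. Summed over all 35 genes, the list stood at 122% in Ncx1+/+ and 135% in Ncx1-/- of its level in all other nuclei. By the same measure sinus venosus genes stood at 124 and 132%, and septum transversum and lateral mesoderm genes at 92.8 and 131%. The sums thus set the epicardial list little apart from these.

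Lhx9 (ENSMUSG00000019230; chromosome 1, 138825186 to 138848577), a LIM homeobox factor, was at 109 CPM in Ncx1+/+ and 74.6 CPM in Ncx1-/- members, with 0 counts in Ncx1+/-. This was 403-fold (211 to 798) and 130-fold (76.3 to 223) the level in other nuclei. Sema3d, a secreted guidance protein of the proepicardium and epicardium, was at 601 and 269 CPM, 107-fold and 51.4-fold. Itga4 was at 515 and 226 CPM, 55.0-fold and 66.3-fold. Endothelial-rule and cardiomyocyte-rule nuclei stood at 4.29 and 4.73 CPM of Sema3d in Ncx1+/+, so both comparison sets held little of it.

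Pdgfra, a growth factor receptor of epicardial and mesenchymal cells, was at 194 and 168 CPM, 8.99-fold and 6.41-fold the level in other nuclei. Dlk1, a Notch ligand-like protein, was 6.96-fold and 4.45-fold higher, and Krt18, a keratin of simple epithelia, 4.08-fold and 3.24-fold. The orphan nuclear receptors Nr2f1 and Nr2f2, known from the venous pole, were 2.60-fold and 3.70-fold and 3.04-fold and 2.61-fold higher. These genes were thus higher in members of both libraries, by smaller ratios than Lhx9, Sema3d and Itga4.

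Other epicardial genes were not counted. Podxl, the podocalyxin of epithelial surfaces, was 2.67-fold higher in Ncx1+/+ and 1.87-fold in Ncx1-/-, short of 2-fold in the latter. Gata4 and Zfpm2, a transcription factor and its cofactor that heart muscle and endocardium also express, were at 1.13-fold and 1.43-fold and at 0.864-fold and 0.932-fold the level of other nuclei. Tbx20 was lower in members, at 0.270-fold and 0.640-fold. Msln, Muc16 and Dmkn, genes of mature mesothelium, had 0 counts in all members. Aldh1a1, a second retinoic acid-synthesising enzyme, fell short of the count minimum with 12 counts in 8 Ncx1+/+ members and 2 counts in 2 Ncx1-/- members. It stood at 46.5 CPM in Ncx1+/+ members against 0 CPM in all other nuclei (interval of the ratio from 641 upward) and at 252-fold (13.1 to 14889) in Ncx1-/-.

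The 15 leading genes were Lhx9, Sorcs1, Wt1os, Itga4, Sema3d, Ildr2, Pik3c2g, Grik4, Gpr39, Cemip, Ndst4, Efemp1, Enpp1, Ptn and Adarb2. Sorcs1, a sorting receptor, was at 864 and 241 CPM, 107-fold and 76.0-fold the level in other nuclei. Wt1os, a transcript antisense to the region upstream of Wt1, was at 109 and 48.1 CPM, 196-fold and 57.4-fold. Ptn, the secreted growth factor pleiotrophin, was at 469 and 363 CPM, 23.0-fold and 17.5-fold. At the low end Adarb2 was 17.4-fold and 19.8-fold higher, so all 15 were more than 15-fold higher in both libraries.

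**Figure D3:**
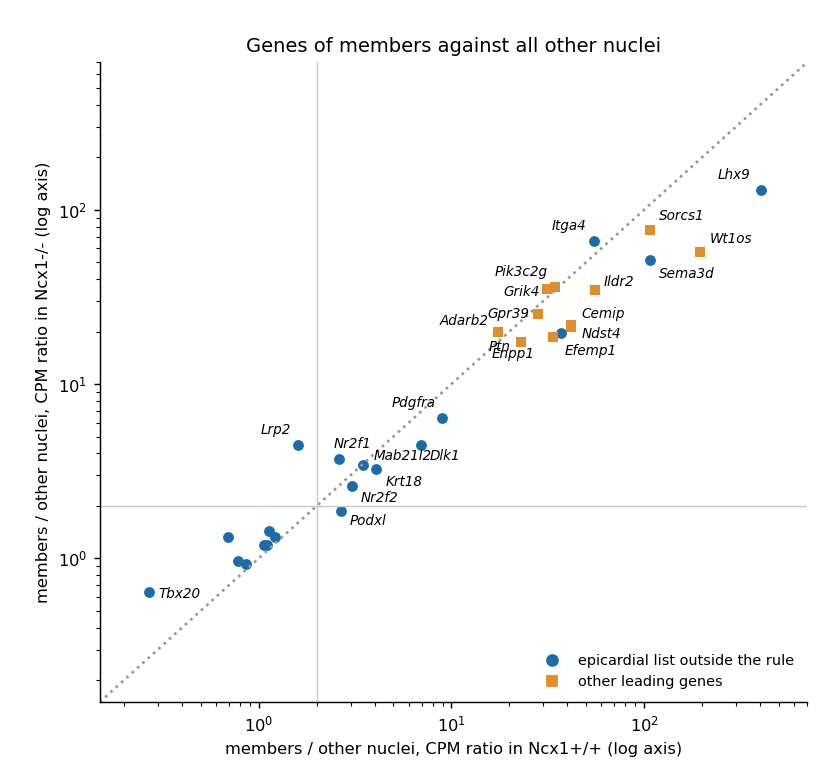
CPM ratio of members to all other nuclei in Ncx1+/+ (x) and Ncx1-/- (y), both axes logarithmic, for the tested genes of the epicardial list outside the rule (circles) and for the other leading genes (squares). The dotted line is equality and the grey lines mark 2-fold; Lhx9 lies at the upper right at 403-fold and 130-fold, and Tbx20 at the lower left at 0.270-fold and 0.640-fold.

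Slc8a1 (ENSMUSG00000054640; chromosome 17, 81373105 to 81738377, minus strand), the gene of the genotype, was read first. Members held 941 counts in 55 of 61 Ncx1+/+ nuclei, 79 counts in the 3 Ncx1+/- nuclei and 219 counts in 36 of 92 Ncx1-/- nuclei, or 3647, 5228 and 527 CPM. The Ncx1-/- level was 6.92-fold lower than in Ncx1+/+ (5.97 to 8.05), the direction the labels give. In cardiomyocyte-rule nuclei the gene was at 16890 and 1297 CPM. The 12 cardiomyocyte markers summed to 8499 and 11295 CPM in members. The part of heart muscle RNA in the Slc8a1 counts of members was not tested.

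Ncx1-/- and Ncx1+/+ members were compared over 3246 genes outside the rule with at least 50 counts. A gene was called where its CPM differed at least 1.5-fold and the counting interval of the ratio excluded 1. By this rule 199 genes (6.13%) were higher and 215 (6.62%) lower in Ncx1-/-, with a median log2 ratio of −0.02 over all 3246. Of the 12 leading higher genes 5 belonged to the hypoxia and glycolysis list, and the 12 leading lower genes included Slc8a1 and 2 of the genes that lead the member profile, Sorcs1 and Enpp1. At 2-fold the counts were 78 higher and 61 lower.

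**Figure D4:**
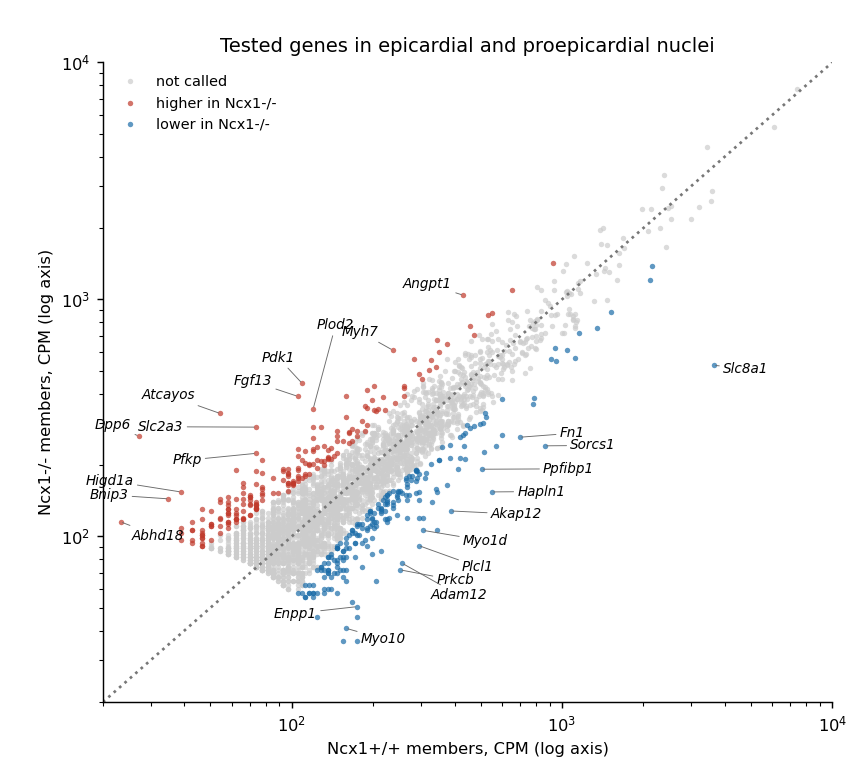
CPM of the 3246 tested genes in members of Ncx1+/+ (x) and Ncx1-/- (y), both axes logarithmic, with called genes in colour and the 12 leading genes of each direction named. Slc8a1 lies farthest below the line of equality, at 3647 and 527 CPM, and Dpp6 far above it, at 27.1 and 265 CPM.

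The hypoxia and glycolysis list held more called genes than any other of the 24 lists. Of its 37 genes 25 were tested, and 17 of these were higher in Ncx1-/- and 0 lower, beside 6.13% and 6.62% over all genes. The list's median log2 ratio was 0.81, against −0.02 over all tested genes, and lay between 0.77 and 0.92 under all 12 alternatives of membership, scaling and filter. The minimum of 1000 detected genes, the mitochondrial limit and the 2-fold minimum could not move this median. Counted per nucleus, the list's genes took 4.83 to 106 UMIs per 10000 in the 61 Ncx1+/+ members (median 41.9), 33.2 to 66.1 in the 3 Ncx1+/- members (median 53.0) and 22.2 to 194 in the 92 Ncx1-/- members (median 77.3). Whole ranges overlap, but the middle 50% of nuclei, 32.3 to 53.1 and 63.9 to 99.4, do not. The summed cardiomyocyte markers also differed between the libraries, at 8499 CPM in Ncx1+/+ and 11295 CPM in Ncx1-/- members. The list median was 0.92 with members in the range of heart muscle RNA left out and 0.89 with free cardiomyocyte RNA subtracted. The part of heart muscle RNA in the list was not tested.

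Pdk1 (ENSMUSG00000006494), the kinase that keeps pyruvate out of the mitochondria, was at 109 CPM in Ncx1+/+ and 443 CPM in Ncx1-/-, with 1 count in Ncx1+/-. It was 4.08-fold higher (2.73 to 6.31), with UMIs in 17 of 61 and 71 of 92 members. Slc2a3, a glucose transporter, was at 73.6 and 289 CPM and 3.92-fold higher (2.40 to 6.74). Both genes were spread over many nuclei, with at most 9 counts in any of them.

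Bnip3, a mitophagy receptor, was at 34.9 and 144 CPM and 4.14-fold higher (2.04 to 9.49). Higd1a, a hypoxia-induced mitochondrial protein, was at 38.8 and 154 CPM and 3.97-fold higher (2.03 to 8.68). Pfkp, a phosphofructokinase of glycolysis, was at 73.6 and 224 CPM and 3.04-fold higher (1.84 to 5.27). Of other enzymes of glycolysis Pgk1, Aldoa, Tpi1, Gpi1 and Hk2 were also called higher, while Pfkl, Eno1, Gapdh, Pkm and Pgam1 were not called. Bnip3 and Higd1a held 69 and 74 counts in all and were no longer tested at 100 counts, with at least 4 markers or after subtraction of cardiomyocyte RNA.

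Of the more abundant members, the hexokinase Hk2 was at 550 and 876 CPM (1.59-fold, 1.31 to 1.95) and the glucose transporter Slc2a1 at 349 and 597 CPM (1.71-fold, 1.34 to 2.20). Lactate dehydrogenase Ldha was at 283 and 558 CPM (1.97-fold, 1.51 to 2.60), and P4ha1, a collagen prolyl hydroxylase subunit, at 260 and 433 CPM (1.67-fold, 1.25 to 2.24). Plod2, a collagen lysyl hydroxylase outside the list, was at 120 and 346 CPM (2.88-fold, 1.95 to 4.40). The call of Hk2 was kept under 8 of 12 alternatives and that of Slc2a1 under 10. Of the tested list 8 genes were not called; Slc16a3 and Gapdh among them had ratios of 0.998 and 1.36. Glycolytic genes such as Gapdh, Eno1 and Tpi1 have processed copies elsewhere in the genome with which reads can be shared, so their levels are less certain.

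The same list was also higher in the other nuclei of the Ncx1-/- library. Its median per nucleus was 20.4 in Ncx1+/+ and 63.9 UMIs per 10000 in Ncx1-/- endothelial-rule nuclei, and 48.9 and 81.7 in cardiomyocyte-rule nuclei. Members of Ncx1+/+, at 41.9, lay between both. Pdk1 was 4.70-fold higher in endothelial-rule and 2.11-fold higher in cardiomyocyte-rule nuclei, beside 4.08-fold in members; differences between these ratios were not tested.

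**Figure D5:**
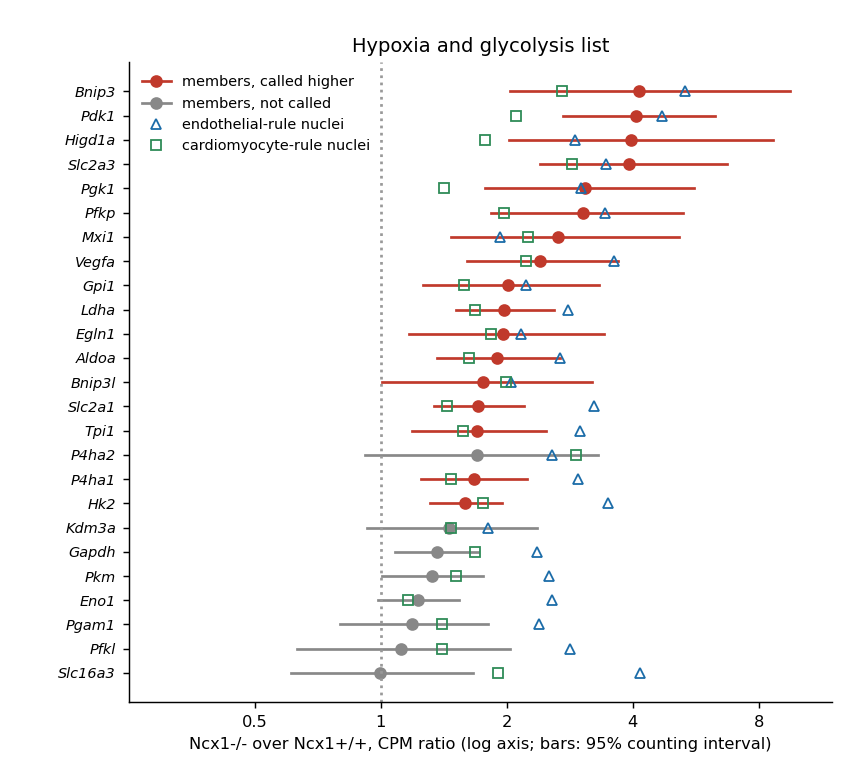
Ratio of Ncx1-/- to Ncx1+/+ CPM for the 25 tested genes of the hypoxia and glycolysis list on a logarithmic axis, in members (filled circles, bars for the 95% counting interval, red where called), endothelial-rule nuclei (triangles) and cardiomyocyte-rule nuclei (squares). Member ratios run from 0.998 for Slc16a3 to 4.14 for Bnip3, and 17 of the 25 genes are called higher.

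Promoters of the list's most distinct called genes are shown because hypoxia-inducible factors are known to bind the core letters ACGTG and GCGTG. The 250 bases before the RefSeq start (GRCm38.p6) are printed 5′ to 3′ on the gene's strand for the leading list genes with an entry: Pdk1 (chr2:71872974-71873223, plus strand), Bnip3 (chr7:138909507-138909756, minus strand) and Higd1a (chr9:121857797-121858046, minus strand). Capitals mark each match to ACGTG or GCGTG on either strand, so CACGT and CACGC are also in capitals and matches may overlap.
Pdk1: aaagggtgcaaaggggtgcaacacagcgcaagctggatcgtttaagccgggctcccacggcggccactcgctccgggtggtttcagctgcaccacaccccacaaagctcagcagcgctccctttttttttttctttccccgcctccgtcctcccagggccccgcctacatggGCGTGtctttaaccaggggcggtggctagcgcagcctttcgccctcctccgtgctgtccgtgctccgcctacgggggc
Bnip3: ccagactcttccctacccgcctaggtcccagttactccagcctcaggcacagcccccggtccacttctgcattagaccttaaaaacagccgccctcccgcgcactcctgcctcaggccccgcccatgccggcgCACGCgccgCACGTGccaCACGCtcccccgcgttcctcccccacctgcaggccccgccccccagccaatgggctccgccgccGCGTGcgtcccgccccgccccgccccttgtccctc
Higd1a: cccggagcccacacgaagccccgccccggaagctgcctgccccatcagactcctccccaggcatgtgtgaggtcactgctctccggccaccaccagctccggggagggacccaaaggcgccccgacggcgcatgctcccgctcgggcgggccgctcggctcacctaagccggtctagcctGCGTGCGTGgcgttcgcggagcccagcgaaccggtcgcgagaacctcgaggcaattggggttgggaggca
These windows hold 1, 5 and 2 matches. Either motif was present in 10 of 15 called genes of the list with an entry (66.7%), in 7 of 8 that were tested and not called (87.5%) and in 10431 of 27025 promoters of the table (38.6%). The share was thus no higher in called genes than in uncalled genes of the list. A match is a description of letters and does not show binding.

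Of the 15 genes that lead the member profile 10 were tested between genotypes, and 7 of these were lower in Ncx1-/- and 0 higher, beside 6.62% and 6.13% over all genes: Sorcs1, Sema3d, Itga4, Enpp1, Gpr39, Ndst4 and Ildr2. Lhx9, Grik4 (132 and 185 CPM) and Ptn were not called, and 5 had too few counts, among them Adarb2 at 27.1 and 62.6 CPM. Sorcs1 (ENSMUSG00000043531; chromosome 19, 50143299 to 50678646) had 223 counts in Ncx1+/+, 0 in Ncx1+/- and 100 in Ncx1-/-, or 864 and 241 CPM, 3.59-fold lower in Ncx1-/- (2.82 to 4.59). Sema3d (ENSMUSG00000040254; chromosome 5, 12383385 to 12588948) had 155, 4 and 112 counts and was 2.23-fold lower (1.74 to 2.87). Itga4 (ENSMUSG00000027009; chromosome 2, 79255426 to 79333123) had 133, 2 and 94 counts and was 2.28-fold lower (1.74 to 3.0). All 3 were called lower under all 12 alternatives, some of which could not change a call, as stated under data processing.

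Enpp1, an ectoenzyme that makes pyrophosphate, was at 174 and 50.5 CPM and 3.45-fold lower (2.01 to 6.1). Gpr39, an orphan receptor, was 2.46-fold lower (1.59 to 3.86), and Ildr2 only just called (1.81-fold lower, 1.01 to 3.28). Some of these genes were also lower outside members. Endothelial-rule nuclei of Ncx1+/+ and Ncx1-/- held Sorcs1 at 13.7 and 3.70 CPM and Itga4 at 21.2 and 8.63 CPM. In the same nuclei Gpr39 was at 17.1 and 2.22 CPM and Enpp1 at 3.03 and 1.89 CPM. Sema3d (4.29 and 4.69 CPM), Ndst4 (0.801 and 1.32 CPM) and Ildr2 (0.744 and 1.07 CPM) were not lower there. In cardiomyocyte-rule nuclei each of these genes was lower in Ncx1-/-. Sema3d was at 4.73 and 3.52 CPM, Ndst4 at 5.72 and 3.67 CPM and Ildr2 at 2.38 and 1.61 CPM. Sorcs1 was at 5.29 and 2.76 CPM, Enpp1 at 5.81 and 2.45 CPM, Itga4 at 1.66 and 1.33 CPM and Gpr39 at 3.37 and 3.21 CPM. The difference between sets was not tested. Lhx9, at 109 and 74.6 CPM in members, was not called. A pair of transcription factors of the same epicardial list were higher: Gata5 at 112 and 229 CPM (2.03-fold, 1.33 to 3.20) and Tbx20 at 302 and 462 CPM (1.53-fold, 1.17 to 2.01). Tbx20 was not called with the highest doublet scores removed, and neither was with nuclei of 2 markers added. Of the 16 tested genes of this list 2 were higher, 2 lower and 12 not called, beside 6.13% and 6.62% over all genes, with a median log2 ratio of −0.03.

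How the lower level was spread over nuclei was read from 4 leading genes, Lhx9, Sorcs1, Itga4 and Sema3d, chosen after their values were seen. UMIs in 3 or all 4 of them were found in 37 of 61 Ncx1+/+ members (60.7%) and 23 of 92 Ncx1-/- members (25%), and in 0.103 and 0.134% of endothelial-rule nuclei. None of them was found in 14.8 and 31.5% of members. With members in the range of heart muscle RNA left out, the shares with 3 or 4 were 67.3 and 27.1%, and after thinning to 2000 UMIs 31.1 and 15.4%. Among members with 4 or more markers of the rule, Sorcs1 was at 1001 and 325 CPM and Sema3d at 659 and 336 CPM. Itga4 was at 613 and 257 CPM there, and Lhx9 at 125 and 79.8 CPM on 19 and 14 counts. These members were again chosen by the rule's own markers, so the values are a description.

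The rest of the 12 leading lower genes were of several kinds. Hapln1, a link protein of the hyaluronan matrix, had 142, 0 and 64 counts, or 550 CPM in Ncx1+/+ and 154 CPM in Ncx1-/-, 3.57-fold lower (2.64 to 4.88). Fn1, fibronectin, was at 698 and 262 CPM, 2.66-fold lower (2.09 to 3.41), with UMIs in 50 members of either library. Adam12, a membrane metalloproteinase, was at 256 and 77.0 CPM, 3.32-fold lower. These 3 genes were also lower in endothelial-rule nuclei, at ratios of 0.546, 0.557 and 0.591.

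Myo10, the myosin of filopodia, was at 159 and 40.9 CPM, 3.88-fold lower (2.16 to 7.29), a call kept under 8 of 12 alternatives. Myo1d, a membrane-linked myosin, was at 306 and 106 CPM, 2.89-fold lower. Ppfibp1, a liprin of cell adhesions, was at 504 and 192 CPM, 2.62-fold lower. Pard3b, a cell polarity protein, was at 570 and 241 CPM, 2.37-fold lower (1.82 to 3.08). Pard3b was the only called gene among 12 tested of the junction and polarity list, beside 6.62% lower over all genes. The median log2 ratio of this list was −0.11.

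Akap12, a scaffold of protein kinase A and C, was at 388 and 128 CPM (3.04-fold lower, 2.16 to 4.32), beside ratios of 1.01 and 0.985 in endothelial-rule and cardiomyocyte-rule nuclei. Prkcb, a protein kinase C, was at 252 and 72.2 CPM (3.49-fold lower), and Plcl1, a phospholipase C-like protein, at 295 and 91.4 CPM (3.22-fold lower). Akap12 and Plcl1 thus differed in members while their ratios stayed nearer 1 in both comparison sets; the difference between sets was not tested.

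Lists of matrix and epithelial-to-mesenchymal transition had medians near that of all genes. In the matrix list 2 of 13 tested genes were lower (Fn1, Hapln1) and 1 higher, Hspg2 (perlecan, 58.1 and 108 CPM, 1.86-fold, 1.02 to 3.60), beside 6.62% lower and 6.13% higher over all genes, with a median log2 ratio of 0.04. Of 15 tested genes of the epicardial transition list, 2 were lower (Fn1, Itga4) and 0 higher, with a median of −0.08. In the cushion mesenchyme list Hapln1 was lower among 4 tested. The calls in these lists thus rest on 1 to 3 genes each, and Hspg2 kept its call under 5 of 12 alternatives only.

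The rest of the leading higher genes were of mixed kinds. Angpt1, a ligand of the endothelial Tie receptor that heart muscle also makes, had 111, 20 and 433 counts, or 430 CPM in Ncx1+/+ and 1042 CPM in Ncx1-/-, 2.42-fold higher (1.96 to 3.01). It was found in 20 of 61 and 63 of 92 members. With nuclei of 2 markers added its ratio was 0.975, which ends the call. Abhd18, an abhydrolase-domain protein, was at 23.3 and 115 CPM, 4.97-fold higher (2.12 to 14.2). Its call was kept under 7 of 12 alternatives, with a ratio of 2.08 at 4 or more markers.

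Dpp6, an accessory subunit of potassium channels, had 7 counts in 3 Ncx1+/+ members and 110 counts in 22 Ncx1-/- members, with up to 33 in 1 nucleus, and was 9.76-fold higher (4.58 to 24.8). With the highest doublet scores removed 35 of its counts remained, too few to test. Fgf13, a sodium channel modulator, was at 105 and 390 CPM, 3.72-fold higher (2.47 to 5.83), in 9 and 22 members. With nuclei of 2 markers added the Fgf13 ratio was 1.16, which ends the call. Atcayos, which is antisense to Atcay, was at 54.3 and 330 CPM, 6.07-fold higher (3.50 to 11.4). Dpp6 and Fgf13 thus came from fewer nuclei than Pdk1. In Ncx1-/- the levels of Dpp6, Fgf13 and Atcayos were higher in cardiomyocyte-rule nuclei than in members, at 805, 1113 and 812 CPM.

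Over all members, heart muscle genes were mostly not called. Of 12 tested cardiomyocyte markers 2 were higher and 0 lower, beside 6.13% and 6.62% over all genes. The higher ones were Myh7 at 236 and 611 CPM (2.58-fold, 1.95 to 3.48) and Myl7 at 457 and 770 CPM (1.68-fold, 1.36 to 2.10), with a list median of 0.43. Both were also higher in endothelial-rule nuclei (2.51-fold and 2.22-fold). With free cardiomyocyte RNA subtracted 2 counts of Myh7 remained, too few to test, and with nuclei of 2 markers added Myh7 was not called. The call of Myl7 was kept under 8 of 12 alternatives. More markers were called in 2 narrower sets of members. With members in the range of heart muscle RNA left out, 6 of 11 tested were higher (median 0.63), beside 202 of 2898 genes. With at least 4 rule markers 5 of 11 were higher (median 0.56), beside 98 of 1532 genes. With the highest doublet scores removed 1 of 11 was higher (median 0.24), beside 172 of 2723 genes. The summed cardiomyocyte level of members given above, 8499 and 11295 CPM, moves with Angpt1, Dpp6, Fgf13, Atcayos, Myh7 and Myl7, and its part in their differences was not tested.

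Mesoderm genes of the septum transversum and venous pole gave few tested members, whose calls stand beside 6.13% higher and 6.62% lower over all genes. Of 6 tested of 24, Meis2, a homeobox factor, was higher at 926 and 1424 CPM (1.54-fold, 1.32 to 1.79) and Wnt2, a Wnt ligand of the venous pole, at 69.8 and 135 CPM (1.93-fold, 1.12 to 3.49). Ebf1, an early B-cell factor family member found in mesenchyme, was lower at 1120 and 565 CPM (1.98-fold lower, 1.66 to 2.36), with 0 counts in Ncx1+/-, which allows up to 199 CPM. Vsnl1, a calcium sensor of the sinus venosus, was the only tested gene of that list and was higher at 96.9 and 168 CPM (1.74-fold). The calls of Wnt2 and Vsnl1 were kept under 8 of 12 alternatives each, and that of Meis2 under 10.

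Signalling genes differed singly. In the BMP and TGF-beta list 3 of 14 tested genes were higher, the ligand Bmp5 (147 and 279 CPM, 1.90-fold), the inhibitor Smad7 (77.5 and 161 CPM, 2.08-fold) and the target Id1 (167 and 253 CPM, 1.52-fold), beside 6.13% higher and 6.62% lower over all genes. The activin receptor Acvr2a (163 and 101 CPM, 1.61-fold lower) and the target Id2 (384 and 243 CPM, 1.58-fold lower) were lower, and the list median was −0.01. The Bmp5 ratio was 0.992 with nuclei of 2 markers added, where Smad7 and Id1 were not called either; Id2 kept its call under 8 of 12 alternatives. In the hedgehog list the receptor Ptch1 (11 and 48 counts, 2.71-fold, 1.39 to 5.78) and Smo (109 and 209 CPM, 1.93-fold, 1.25 to 3.07) were higher among 5 tested, with a list median of −0.16. The call of Ptch1 was kept under 7 of 12 alternatives, over which its ratio ran from 1.01 to 11.2, and that of Smo under 10.

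Among secreted mitogens and their receptors 7 genes were tested. Calls in this list and in the retinoic acid and cilia lists stand beside 6.13% higher and 6.62% lower over all genes. Angpt1 was higher and Egfr, the epidermal growth factor receptor, lower at 209 and 132 CPM (1.58-fold lower, 1.07 to 2.35), a call kept under 7 of 12 alternatives, with a list median of 0.07. Igf2, at 349 and 380 CPM, and Pdgfra, at 194 and 168 CPM, were not called. Rarb, a retinoic acid receptor and target, was the only tested gene of the retinoic acid list and was higher at 50.4 and 111 CPM (2.20-fold, 1.17 to 4.43). Of cilia genes Ift81 (2.24-fold) and Dync2h1 (1.57-fold) were higher among 3 tested. The calls of Rarb, Ift81 and Dync2h1 rest on 13 to 76 counts a library and were lost under 6, 5 and 5 of 12 alternatives.

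Few proliferation genes were called, as among all genes. In the cell cycle list 0 of 23 tested genes were higher and 1 lower, beside 6.13% and 6.62% over all genes. The lower gene was the mitotic kinesin Kif23 (213 and 132 CPM, 1.61-fold lower, 1.09 to 2.38, kept under 9 of 12 alternatives). The list's median log2 ratio was −0.06. Per nucleus the list took a median of 60.9 UMIs per 10000 in Ncx1+/+ and 56.1 in Ncx1-/- members, with the middle 50% at 47.3 to 70.5 and 37.5 to 69.8. Top2a, at 589 and 573 CPM, and Mki67, at 279 and 267 CPM, had ratios of 0.972 and 0.957.

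Among stress and mitochondrial lists, calls stand beside 6.13% higher and 6.62% lower over all genes. Hsp90aa1, a heat shock chaperone, was lower at 190 and 106 CPM (1.79-fold lower, 1.17 to 2.76), 1 of 7 tested. In the oxidative phosphorylation list Cox7a2 was higher at 69.8 and 149 CPM (2.14-fold) and Ndufs1 lower at 132 and 72.2 CPM (1.83-fold lower), with a median of 0.28 over 12 tested. Both calls were kept under 7 of 12 alternatives, over which the ratio ran from 1.25 to 3.83 for Cox7a2 and from 0.378 to 0.787 for Ndufs1. The call of Hsp90aa1 was kept under 8. Integrated stress genes gave no call of 2 tested, Nars and Slc3a2, with ratios of 0.931 and 1.02. The embryonic globins Hbb-y (174 and 36.1 CPM) and Hba-x (155 and 36.1 CPM) were 4.83-fold and 4.30-fold lower, and share reads with near-identical family members. The Ncx1-/- library held fewer erythroid-rule nuclei, as given above, and the part of their RNA was not tested. Of endothelial genes outside the rule, Ptprm was lower at 159 and 65.0 CPM (2.45-fold lower), the only one tested.

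Members differed among themselves by Tcf21. It had a UMI in 33 of 61 Ncx1+/+ and 53 of 92 Ncx1-/- members, mostly together with Tbx18, since 3 and 8 members held Tcf21 alone. Members with and without it were compared within each library over 3246 genes, a split added after the counts were seen. By 1.5-fold with both intervals excluding 1 in both libraries, 14 genes (0.431%) were higher and 33 (1.02%) lower in members with Tcf21.

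Ebf1 was at 1565 CPM with Tcf21 and 593 CPM without it in Ncx1+/+ (2.64-fold, 2.01 to 3.51), and at 852 and 202 CPM in Ncx1-/- (4.22-fold, 2.96 to 6.17). Hapln1 was 2.40-fold and 2.58-fold higher, and Has2, the hyaluronan synthase, 3.12-fold and 2.23-fold. Mecom, a zinc finger transcription factor, was 3.52-fold and 3.29-fold higher, on 25 and 6 counts in either library. Plcl1 and Ppp2r2b completed the leading 6.

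Lower with Tcf21 were Kcnd2, Smpx, Fnip2, Fhod3, Sorbs2 and Popdc2, among them genes known from heart muscle. Kcnd2, a potassium channel, was at 28.6 CPM with Tcf21 and 296 CPM without it in Ncx1+/+, and at 30.1 and 175 CPM in Ncx1-/-. The median cardiomyocyte share was 0.396% with Tcf21 and 0.539% without it in Ncx1+/+, and 0.480 and 0.679% in Ncx1-/-. With members in the range of heart muscle RNA left out, 8 genes (0.276%) were higher and 10 (0.345%) lower, and Mecom, Ebf1, Hapln1 and Has2 were again among the leading 6 higher genes. Of the leading 6 lower genes Fhod3 and Popdc2 were again among them, and Kcnd2, Smpx, Fnip2 and Sorbs2 were not. Members in the range of heart muscle RNA held 34 counts of Kcnd2 in Ncx1+/+ and 19 in Ncx1-/-, and the other members 5 and 20.

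The comparison of members with Tbx18 only and Tcf21 only gave 30 higher (1.89%) and 11 lower (0.694%) of 1585 tested genes, but rests on the 3 and 8 members with Tcf21 only. Under TMM scaling 87 genes in place of 41 were counted. Slc8a1, Pam, Nebl, Vcan, Palld and Sorbs2 led the genes higher with Tbx18 only, and Pdgfc, Fbxl7, Ctnnd2, Dis3l2, Atrnl1 and Nhs those higher with Tcf21 only. Fbxl7, for example, was at 635 and 2096 CPM in Ncx1+/+ and at 431 and 1432 CPM in Ncx1-/-. Cardiomyocyte share was 0.539 and 0.225% in Ncx1+/+ and 0.679 and 0.355% in Ncx1-/-, and moves with Slc8a1, Nebl and Sorbs2.

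A UMI of Upk3b, Upk1b or Bnc1, genes of the mesothelial surface, was found in 55 of 61 Ncx1+/+ and 71 of 92 Ncx1-/- members. Against the 6 and 21 members without, 21 of 3246 genes (0.647%) were higher and 8 (0.246%) lower in both libraries; under TMM scaling 54 in place of 29 were counted. Akap12 had 100 counts with and 0 without these markers in Ncx1+/+, and 49 and 4 in Ncx1-/-. Ctnna3, an alpha-catenin, was at 735 and 167 CPM in Ncx1+/+ and at 900 and 276 CPM in Ncx1-/-. Ghr, the growth hormone receptor, was at 444 and 167 CPM and at 512 and 156 CPM.

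Dmd, Ankrd28 and Cacna1c completed the higher side. Angpt1 was lower with the surface markers, at 380 and 916 CPM in Ncx1+/+ and 873 and 1716 CPM in Ncx1-/-, as was Wnt2, at 55.5 and 208 CPM and at 108 and 240 CPM. Usf3, Hook3, Tmeff1 and Sept10 were the other leading lower genes. Without the surface markers Wnt2 rested on 5 counts in Ncx1+/+ and 20 in Ncx1-/-, and differences between the libraries within either side of the split were not tested.

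Some named genes overlap another gene: Itga4 lies over Cerkl, Slc8a1 over Gm11096, Pard3b over its own antisense genes, Egfr over Egfros, Gata5 over Gata5os, Myh7 over Mhrt, Rarb over Top2b and Atcayos over Atcay and Nmrk2. The sources used here do not say whether counting used strand, so reads of such partners may not be told apart.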

How the data were processed

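Nuclei of 3 whole-heart pools were sequenced with the 10x Genomics kit version 3.1, per the labels. The authors deposited UMI counts per gene and barcode, in whole numbers and not normalized. The submitters' processing notes name mm10 and Cell Ranger 6.1.0, and the file headers version 9.0.0. The sources used here do not say whether introns or strand entered the counting.

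Counts were summed over members per library and scaled to CPM (Python 3.11.15, numpy 2.4.6, scipy 1.17.1, pandas 2.3.3). Ratios carry exact conditional binomial intervals and shares Clopper-Pearson intervals. With 1 library per genotype there are no p-values. The 19 rule genes were left out of comparisons. The calling rule was run on simulated Poisson counts in which some genes were changed by known folds. These counts hold no spread between nuclei or hearts, so the run could not show how the rule behaves with such spread. Members and the 24 gene lists were chosen with earlier results of these data known.

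Named genes are the 12 called genes of each direction whose interval bound lies farthest from 1, up to 4 called genes per list by counts (the 2 with most counts where none was called), the 15 genes highest against other nuclei, and 6 per direction and split. Haemoglobin, ribosomal, mitochondrial, sex-linked and predicted genes were not ranked. Genes named beyond this rule were chosen after their values were seen.

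Doublets were kept, because Scrublet (scanpy 1.11.5) called 10.2, 0 and 0% of nuclei automatically; removing the top 8% of scores was an alternative and took 4, 0 and 11 members. The other alternatives were marker minimums, a gene minimum of 1000, a mitochondrial limit, a limit on heart muscle RNA, TMM (edgeR 4.0.16, R 4.3.3) and median-of-ratios scaling, count and fold minimums and subtraction of free cardiomyocyte RNA. The gene minimum of 1000 and the mitochondrial limit left the members as they were, so no call between genotypes could change under them. Calls made with the count minimum could likewise not be lost without it. Of 27998 gene identifiers 27645 (98.7%) matched GENCODE M21, used for coordinates in mm10.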

Additional observations from a re-analysis of the deposited data

How the results depend on the processing

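No paired analysis was possible because each genotype has 1 library, and no library could be left out for the same reason. With at least 4 rule markers the member shares were 0.265, 0 and 0.325%, and 98 genes were higher and 140 lower in Ncx1-/- of 1532 tested; the Tbx18-only against Tcf21-only comparison gave 2 genes (41 as reported), and the surface marker split could not be fitted, since no Ncx1+/+ member lacked them. At least 2 markers, an alternative chosen after seeing the data, gave shares of 1.25, 0.439 and 1.79%, 374 lower genes, and ratios turned to 0.975 for Angpt1, 0.803 for Tbx20 and 0.992 for Bmp5 and a sinus venosus median of −0.25. Thinning gave 0.321 and 0.447%. Without a count minimum 372 genes were higher and 457 lower, and the medians of the sinus venosus and cilia lists turned to −0.01 and −0.02. At 100 counts 97 and 115 genes were called, and at 2-fold 78 and 61, with 18 in the surface marker split (29 as reported, 16 with members in the range of heart muscle RNA left out). TMM and median-of-ratios scaling gave 87 genes each in the Tbx18-only comparison and 54 and 55 in the surface marker split. Tcf21 against no Tcf21 under the limit on heart muscle RNA, also added after seeing the data, gave 18 genes. Subtracting free cardiomyocyte RNA, at 34.2 and 43.4% of its level in heart muscle nuclei, left 67.1 and 57.6% of member UMIs and turned Myh7 to 0.483, a ratio that rests on the 2 counts left and was not tested. The calls of Atcayos, Pdk1, Slc2a3, Plod2, Slc8a1, Sorcs1, Hapln1, Akap12, Plcl1, Fn1, Myo1d, Ppfibp1, Sema3d, Itga4 and Pard3b were kept under each alternative run for them, and the other named calls were lost under at least 1. Atcayos and Slc8a1 had a value under 11 alternatives only, and the rest of the kept genes under 12. Dpp6, Fgf13 and Pfkp also had a value under 11 only. Other causes were not tested. Depth limits the calls, since the tested genes had a median of 96.0 counts over both libraries.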

Other observations

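Some nuclei outside the rule held UMIs in at least 3 of the 4 leading member genes Lhx9, Sorcs1, Itga4 and Sema3d. There were 6 among 13501 in Ncx1+/+ (0.0444%, exact binomial interval 0.0163 to 0.0967), 1 among 12302 in Ncx1+/- and 8 among 12233 in Ncx1-/- (0.0654%, 0.0282 to 0.129). Of these, 5, 0 and 7 carried a rule marker and 3, 1 and 3 carried at least 4 of the endothelial genes.

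Nuclei with at least 3 rule markers that were left out for 4 or more endothelial genes numbered 2, 1 and 8, with median depths of 9830, 7596 and 10581 UMIs. In Ncx1+/+ both together held 13 counts of Itga4 and 28 of Sorcs1, and the 8 of Ncx1-/- held 1 and 9. Nuclei with 3 rule markers but neither Tbx18 nor Tcf21 numbered 1, 0 and 12, and the 12 held 0 counts of Lhx9, Itga4 and Sorcs1.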
